A study of Mus musculus with 6 samples.

Results

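Ribosome biogenesis and nucleolar genes encode the machinery that transcribes ribosomal RNA (rRNA), cuts and modifies it, and assembles it with proteins into the ribosomal subunits. A list of 40 such mouse genes was followed across 3 groups of blastocysts. The genes were chosen by symbol. Each was represented by a probeset, the set of short probes that reports one transcript on the array, annotated with that symbol alone. Where a gene had several, the one with the highest mean signal over the 6 arrays stood for it. Of the 40 genes, 37 had such a probeset, out of 22180 genes represented in the same way. The remaining members, Fbl (fibrillarin, the methyltransferase of box C/D particles), Tsr1 (a late small subunit assembly factor) and Mrto4 (a large subunit assembly factor), were not analysed here. Genes were tested where at least 2 of the 6 arrays lay at or above the array's median signal. This filter kept 36 members and 14020 genes in all. Utp15 lay below the array median on all 6 arrays, so it was not tested and only its values are given.

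Ribosomes are built mainly in the nucleolus. RNA polymerase I transcribes a long precursor rRNA, small nucleolar ribonucleoproteins (snoRNPs) guide its methylation and pseudouridylation, and the small subunit processome and a series of large subunit assembly factors fold and cut it. The early embryo forms functional nucleoli as its own genome becomes active, and growth of the blastocyst draws on continued ribosome production.

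The study used 6 Mouse Gene 2.0 ST arrays, 2 for each group of blastocysts from let7g-transgenic mice. D4-act-7g embryos were activated on day 4, Dor-7g embryos were dormant in vivo on day 7, and DOX-7g embryos had been brought to dormancy in vitro through let-7 induced with DOX, also on day 7. All groups share the let7g transgene, RNA released by heating embryos in water (10 blastocysts from each group) and biotin labelling. The strain background, the promoter that drives the transgene, the dose of DOX and the culture conditions are not given in the sources used here. The day differs between D4-act-7g and both dormant groups. DOX-7g further differs from both other groups by culture, DOX and let-7 induction. The effects of these cannot be told apart. Whether the paired arrays of one group hold different mice or pools is not said in the labels, and p-values therefore measure only the spread between these arrays. The microRNA that the transgene is named for is shown for reference, from RefSeq (build GRCm38.p6, chr9:106178846-106178867, + strand), with its seed, bases 2 to 8, in capitals.
mmu-let-7g-5p: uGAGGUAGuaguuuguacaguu

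Dor-7g replicate 1 stood apart from the other arrays. Its median log2 signal over all probesets was 4.87, against 4.62 to 4.67 on the other 5 arrays, and its correlations with them were 0.899 to 0.919 across probesets. The 2 Dor-7g arrays also differed more from each other than did those of the other groups. The median absolute difference between replicates over the 37 measured members was 0.22 for D4-act-7g, 0.45 for Dor-7g and 0.19 for DOX-7g, against 0.17, 0.36 and 0.20 over all genes tested. Most of the listed blastocyst markers lay above the array median. Of the 6 trophectoderm markers 5, among them Cdx2, Gata3, Krt8 and Krt18, did so on all 6 arrays. So did Pou5f1 and Nanog of the inner cell mass and 3 of 4 primitive endoderm markers, while Sox2 lay below it on all of them. The same was true of 3 of 5 uterine epithelium, 2 of 4 uterine stroma and 3 of 5 oocyte markers. This measure therefore does not separate embryonic from maternal RNA. The summed log2 level of the blood markers, of which 4 of 6 were measured, ranged from 14.98 to 15.55 on the D4-act-7g arrays, from 17.27 to 21.46 on the Dor-7g arrays and from 30.88 to 31.64 on the DOX-7g arrays. Ptprc, the pan-leukocyte marker, lay below the median on every array. S100a8 had means of 3.22, 5.00 and 10.52 in D4-act-7g, Dor-7g and DOX-7g. Those of S100a9 were 4.55, 6.76 and 9.55, and those of Ly6g were 3.86, 4.00 and 7.40. The S100a8 mean of Dor-7g rests on replicate 2, at 7.18, against 2.81 on replicate 1. The globins of the list, Hba-a1 and Hbb-bs, were not measured. The summed level of the 4 uterine stroma markers was 19.48 to 19.90, 21.38 to 25.69 and 19.62 to 20.20 in the same order. The 25.69 rests on Dcn, which was 9.29 on Dor-7g replicate 2 and 3.67 to 4.22 on the other arrays. That of the 5 uterine epithelium markers was 24.02 to 24.32, 25.50 to 26.59 and 25.44 to 26.32, and that of the 5 oocyte markers was 28.52 to 29.65, 25.79 to 25.93 and 25.74 to 26.60. These sums differ between some of the groups, and the part of the lists in the results was not tested. In such whole-embryo RNA, fewer cells of a type and less RNA per cell cannot be told apart.

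Setting Dor-7g against D4-act-7g asks how these transcripts differ between embryos dormant in vivo and activated ones. Most members lay somewhat lower in Dor-7g, a few lay much lower, and none passed the test. The largest differences were those of the large subunit assembly factor Brix1 (-2.63 ± 0.48 log2 units, SE, n = 2 arrays per group), the RNA helicase Ddx21 (-1.54 ± 0.34), the snoRNP chaperone Nolc1 (-1.27 ± 0.44) and the processome subunit Wdr75 (-1.18 ± 0.36). Dkc1, the pseudouridine synthase of box H/ACA particles, lay 1.14 ± 0.36 higher. By limma with Benjamini-Hochberg adjustment over all genes, 0 of 36 members passed an adjusted p of 0.05, where 0.984% of the 14020 genes did (138 genes), 0.742% as lower and 0.243% as higher. At an unadjusted p under 0.05 there were 7 members (19.4%), against 14.3% of all genes. They were Brix1, Ddx21, Wdr75, Dkc1, Nolc1, Nip7 and Utp4.

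The median difference of the 37 measured members was -0.24, against 0.06 over all genes tested, and 29 members (78.4%) lay below 0, against 43.3% of all genes. For 16 members (43.2%) both Dor-7g arrays lay below both D4-act-7g arrays, where 21.5% of all genes did so. For 2 (5.41%), Dkc1 and Rrs1, both lay above, where 24.3% did. Centring each array on its median moved the all-gene median from 0.06 to -0.07. Relative to the all-gene median, the members' median was -0.30 as deposited and -0.19 after a second quantile normalization. Centring shifts all genes of an array alike and so cannot alter this value. Without Dor-7g replicate 1 the members' median was -0.18, against -0.03 over all genes, and 25 members had the remaining Dor-7g array below both D4-act-7g arrays, where 42.0% of all genes did. Without Dor-7g replicate 2, 5 of 36 members passed, all lower: Brix1 (adjusted p = 0.00759), Ddx21 (adjusted p = 0.0371), Nolc1, Utp18 and Ltv1. In that fit 6.41% of all genes were called lower, and the lone array was assumed to vary like the other groups.

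Setting DOX-7g against D4-act-7g asks the same of embryos whose dormancy was induced in vitro by let-7. Most members again lay slightly lower, and no member passed the test. The largest differences were those of Wdr75 (-1.10 ± 0.36), Nolc1 (-0.87 ± 0.44), Nip7 (-0.63 ± 0.21), a large subunit assembly factor, and Nop56 (-0.62 ± 0.34), a core box C/D protein, at its brightest probeset. The second Nop56 probeset lay at 0.24 ± 0.74, with overlapping arrays. The third lay at 3.85, but both its D4-act-7g arrays were below the array median and it passed the filter through the day 7 arrays. Dkc1 lay 0.73 ± 0.36 higher. By limma, 0 of 36 members passed the adjusted threshold, where 0.956% of all genes did, 0.25% as lower and 0.706% as higher. At an unadjusted p under 0.05 there were 3 members (8.33%), Wdr75, Nip7 and Nop14, against 11.0% of all genes. The members' median was -0.16, against -0.05 over all genes, and 32 of 37 (86.5%) lay below 0, against 58.0% of all genes. For 16 members (43.2%) both DOX-7g arrays lay below both D4-act-7g arrays, where 30.5% of all genes did, and for 2 (5.41%), Dkc1 and Ncl, both lay above, where 19.2% did. Relative to the all-gene median the members' median was -0.11 as deposited and after the second quantile normalization, and centring cannot alter it. This comparison uses the same D4-act-7g arrays as that of Dor-7g, so the values for both are given side by side below and are not independent of each other.

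The direct comparison of DOX-7g with Dor-7g asks how blastocysts of the induced and the in-vivo dormant group differ. These groups also differ by culture, DOX and let-7 induction, which cannot be told apart from the kind of dormancy. Here the members were spread around 0. Brix1 lay 2.07 ± 0.48 higher in DOX-7g and Ddx21 1.34 ± 0.34 higher, while Ebna1bp2, a large subunit assembly factor, lay -0.52 ± 0.21 from its Dor-7g level. None of the 36 passed by limma, where 1.16% of all genes did, 0.121% as lower and 1.04% as higher, and 3 (8.33%, against 11.6% of all genes) had an unadjusted p under 0.05: Brix1, Ddx21 and Ebna1bp2. The members' median of -0.02 became 0.03 after the second quantile normalization and 0.11 after centring, against all-gene medians of -0.11, -0.05 and 0.02. Both DOX-7g arrays lay above both Dor-7g arrays for 6 members (16.2%, against 15.0% of all genes) and below them for 3 (8.11%, against 26.7%). The 6 were Brix1, Ddx21, Utp4, Polr1a, Ncl and Utp15, and the 3 were Ebna1bp2, Rrs1 and Nop16. Without Dor-7g replicate 2, Brix1 (2.77, adjusted p = 0.0127) and Ltv1 passed as higher in DOX-7g, in a fit that called 5.06% of all genes higher.

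**Figure D1:**
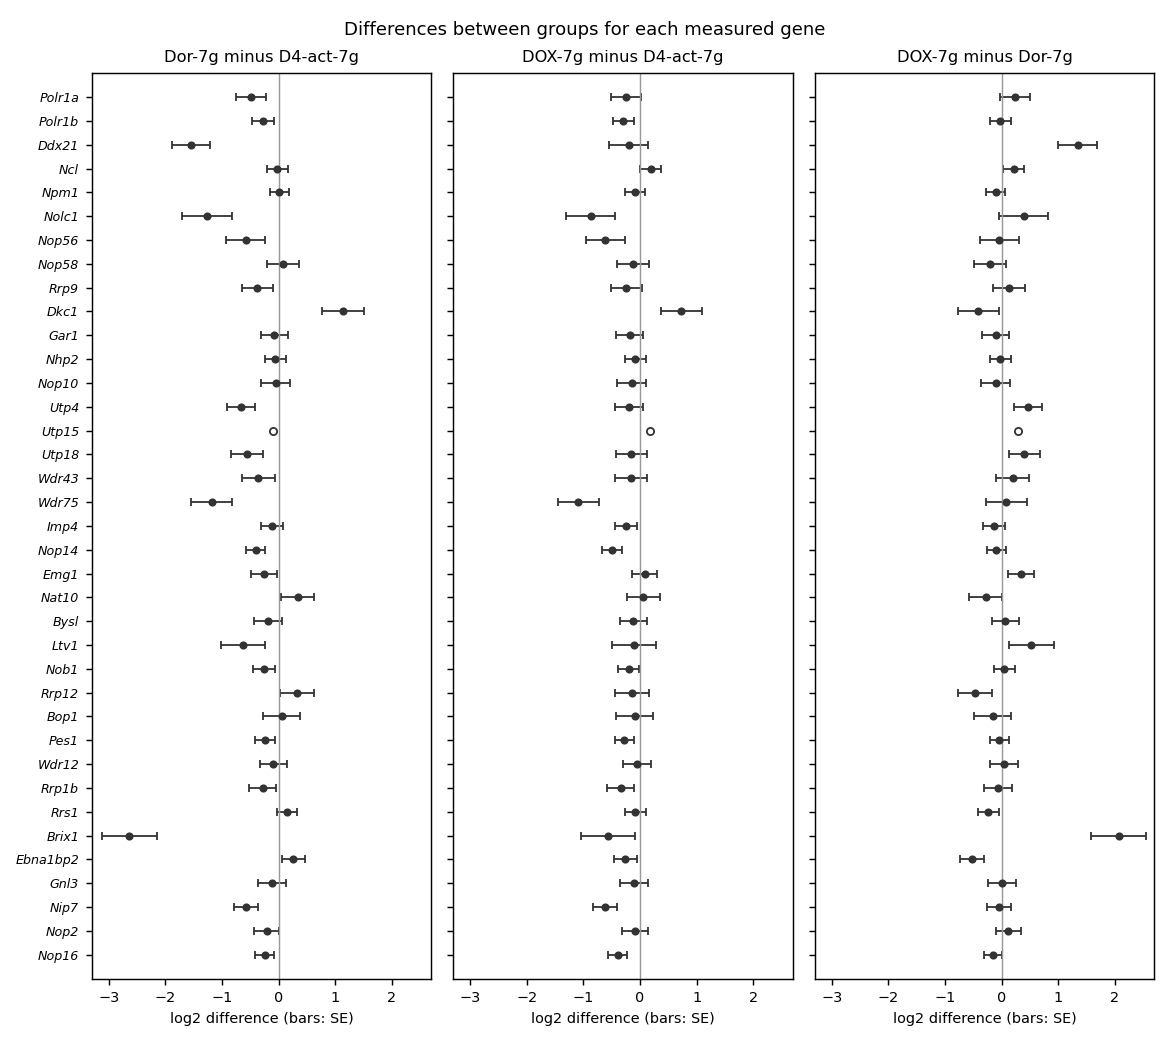
Differences between group means (log2 units, horizontal axis) for each measured member (vertical axis, ordered by role), with 1 panel for each comparison; bars are limma standard errors, and the open circle is Utp15, which was not tested. Brix1 lies at -2.63 in the left panel and 2.07 in the right one, and 27, 31 and 33 of the 37 members lie within 0.5 of 0 from left to right.

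For a single member most of these shifts are small beside the spread between arrays. The median standard error of a member's difference was 0.25 log2 units, which is about the size of the members' median difference in Dor-7g. Set against the D4-act-7g mean, the members' median was -0.18 on Dor-7g replicates 1 and 2 alike, and -0.16 and -0.22 on DOX-7g replicates 1 and 2. The D4-act-7g arrays also differed from each other. On replicate 2, 27 of the 37 members (73%) lay lower than on replicate 1, against 50% of all genes. The members' median was 0.06 on replicate 1 and -0.06 on replicate 2. The number of members below the D4-act-7g mean was 24 (64.9%) and 30 (81.1%) on the Dor-7g arrays, against 40.2% and 53.9% of all genes. On the DOX-7g arrays it was 31 (83.8%) and 28 (75.7%), against 60.3% and 54.3% of all genes.

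**Figure D2:**
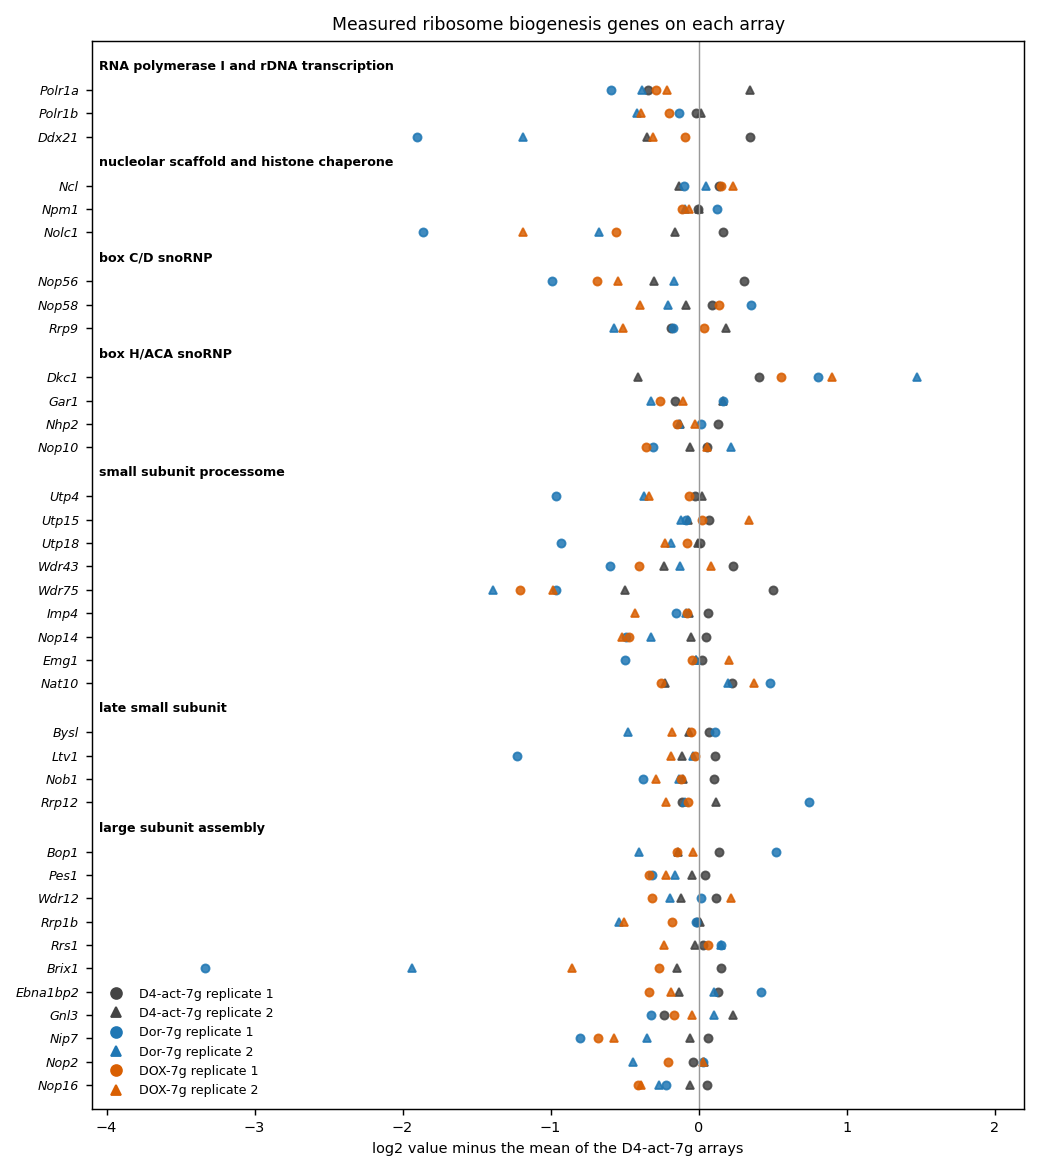
Log2 value of each measured member on each array minus the mean of the D4-act-7g arrays (horizontal axis), with members grouped by role (vertical axis); colours are groups and symbols are replicates. Brix1, Ddx21 and Nolc1 lie farthest to the left on Dor-7g replicate 1, Dkc1 lies to the right of 0 on all Dor-7g and DOX-7g arrays, and most other members lie within 0.5 of 0.

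Promoter sequences were available in RefSeq for 35 of the member genes (38 windows of 300 bases, from 250 before the transcription start to 50 after it, build GRCm38.p6). Their median GC content was 59.5%, against 52.7% over all 32851 windows. Short motifs were searched on both strands, and none of them contains another. CACGTG, the E-box bound by Myc and Max, which are known activators of ribosome biogenesis genes, was found in 8 of the 38 windows (21.1%), against 7.15% of all windows and 9.30% of the windows of tested genes. Those were the windows of Imp4, Ltv1, Nop2, Pes1, Tsr1, Utp18, Utp4 and Wdr43. CCGGAAG, a site of ETS factors including GABP, was found in 12 (31.6%, against 8.86% and 14.6%), and ATGGCG, the core of the YY1 site, in 14 (36.8%, against 8.93% and 13.1%). GGGCGG, the GC box of Sp1, was found in 25 (65.8%, against 35.7% and 56.0%), and TATAAA in 2 (5.26%, against 13.6% and 8.57%), Dkc1 and Pes1. These matches are descriptions of the letters and were not tested against the arrays. The next 6 windows are shown because Brix1, Ddx21 and Wdr75 had the lowest p-values among members lower in Dor-7g, Dkc1 differed in the opposite direction, and Pes1 and Utp4 carry the E-box. Each is written 5′ to 3′ on the strand of its gene, with matches to the motifs on either strand in capitals. A motif that lies on the other strand is shown as its reverse complement.
Brix1 (chr15:10485888-10486187, - strand): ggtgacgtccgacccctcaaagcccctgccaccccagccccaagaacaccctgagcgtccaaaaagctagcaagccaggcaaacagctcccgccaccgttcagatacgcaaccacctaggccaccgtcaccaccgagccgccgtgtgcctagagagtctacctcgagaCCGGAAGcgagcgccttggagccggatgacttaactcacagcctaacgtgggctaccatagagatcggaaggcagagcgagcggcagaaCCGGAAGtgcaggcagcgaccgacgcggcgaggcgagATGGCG
Ddx21 (chr10:62602249-62602548, - strand): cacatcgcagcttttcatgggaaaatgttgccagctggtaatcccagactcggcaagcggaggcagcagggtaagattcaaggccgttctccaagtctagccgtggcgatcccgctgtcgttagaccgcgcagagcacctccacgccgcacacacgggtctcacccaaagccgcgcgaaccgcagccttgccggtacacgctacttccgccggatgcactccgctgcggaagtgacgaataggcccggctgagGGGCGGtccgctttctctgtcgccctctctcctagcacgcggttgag
Wdr75 (chr1:45794916-45795215, + strand): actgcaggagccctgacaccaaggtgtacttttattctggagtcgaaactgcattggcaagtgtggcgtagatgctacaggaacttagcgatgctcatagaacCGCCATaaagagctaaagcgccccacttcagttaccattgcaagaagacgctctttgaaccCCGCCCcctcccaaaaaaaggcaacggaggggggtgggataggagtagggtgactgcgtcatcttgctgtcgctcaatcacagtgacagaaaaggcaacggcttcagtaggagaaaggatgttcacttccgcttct
Dkc1 (chrX:75095604-75095903, + strand): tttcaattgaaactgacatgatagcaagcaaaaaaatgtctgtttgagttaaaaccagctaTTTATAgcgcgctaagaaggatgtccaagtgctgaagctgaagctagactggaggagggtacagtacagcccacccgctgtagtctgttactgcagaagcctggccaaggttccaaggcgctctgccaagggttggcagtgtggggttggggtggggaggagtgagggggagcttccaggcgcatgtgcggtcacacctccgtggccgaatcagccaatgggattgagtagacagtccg
Pes1 (chr11:3963725-3964024, + strand): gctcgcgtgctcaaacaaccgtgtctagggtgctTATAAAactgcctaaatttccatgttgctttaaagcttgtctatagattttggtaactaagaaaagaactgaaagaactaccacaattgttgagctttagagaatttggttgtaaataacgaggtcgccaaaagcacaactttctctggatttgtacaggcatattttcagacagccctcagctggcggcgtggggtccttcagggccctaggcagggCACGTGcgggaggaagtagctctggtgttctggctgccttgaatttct
Utp4 (chr8:106893390-106893689, + strand): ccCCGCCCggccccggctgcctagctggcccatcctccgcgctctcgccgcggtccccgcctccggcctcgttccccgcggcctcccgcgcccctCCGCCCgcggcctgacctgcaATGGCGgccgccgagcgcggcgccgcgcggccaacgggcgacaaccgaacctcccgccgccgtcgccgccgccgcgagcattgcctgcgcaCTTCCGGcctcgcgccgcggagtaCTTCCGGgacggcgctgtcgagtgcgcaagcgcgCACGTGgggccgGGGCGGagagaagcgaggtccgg

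In these windows the start site is base 1 and the base before it is -1, and a match is placed by its first letter. The E-box lies at 3 in Pes1 and at 16 in Utp4. The ETS sites of Brix1 lie at -82 and 8, its ATGGCG is at 45, and the only match of Dkc1 is TATAAA at -189. The Ddx21 window holds GGGCGG at 4, and that of Wdr75 holds GGGCGG at -86 and ATGGCG at -147.

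Among the genes of RNA polymerase I and rRNA gene transcription, Ddx21 stood out in Dor-7g. Ddx21 is a nucleolar helicase that couples transcription by RNA polymerase I to rRNA processing. Its log2 signal was 7.72 and 7.02 on the D4-act-7g arrays, 5.47 and 6.19 on the Dor-7g arrays and 7.28 and 7.06 on the DOX-7g arrays. Both Dor-7g arrays were lower than the other 4, while DOX-7g lay within the range of D4-act-7g. The difference was -1.54 in Dor-7g (95% interval -2.39 to -0.70, adjusted p = 0.137 by limma) and -0.20 in DOX-7g (adjusted p = 0.939), and DOX-7g lay 1.34 above Dor-7g (adjusted p = 0.220). The dimmer of the Ddx21 probesets differed less, at -0.36 in Dor-7g and -0.07 in DOX-7g. Polr1a, the largest subunit of the polymerase, gave 5.12 and 5.81, then 4.87 and 5.08, then 5.17 and 5.25 on the D4-act-7g, Dor-7g and DOX-7g arrays. Its Dor-7g arrays were the lowest, with a difference of -0.49 ± 0.27 (adjusted p = 0.465), and its DOX-7g difference was -0.25 ± 0.27 with overlapping arrays. Polr1b, the second largest subunit, lay near the array median and differed by -0.27 and -0.29. Over these 3 genes the median was -0.49 in Dor-7g and, for DOX-7g, -0.25. The Dor-7g value was -0.83 without D4-act-7g replicate 1 and -0.26 without D4-act-7g replicate 2.

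Among the scaffold proteins of the nucleolus, Nolc1 lay lower in both day 7 groups, while Npm1 and Ncl differed by less. Npm1, nucleophosmin, a histone chaperone and organiser of the granular component, gave 12.70 and 12.71 on the D4-act-7g arrays, 12.83 and 12.62 on the Dor-7g arrays and 12.59 and 12.65 on the DOX-7g arrays. The 95% intervals of its differences were -0.41 to 0.44 in Dor-7g and -0.52 to 0.34 in DOX-7g, so these arrays allow differences up to those bounds. Its dimmer probeset differed by -0.24 and -0.13. Ncl, nucleolin, which binds nascent precursor rRNA, gave 7.41 and 7.14, then 7.17 and 7.32, then 7.42 and 7.50. Its DOX-7g arrays lay just above those of both other groups, with a difference of 0.19 ± 0.19 from D4-act-7g (adjusted p = 0.852) and 0.22 ± 0.19 from Dor-7g. Nolc1, which chaperones snoRNPs and binds RNA polymerase I, gave 8.21 and 7.88, then 6.18 and 7.37, then 7.48 and 6.86. Both day 7 groups lay below D4-act-7g without overlap, with differences of -1.27 ± 0.44 (adjusted p = 0.275) and -0.87 ± 0.44 (adjusted p = 0.575). The median of the scaffold genes in Dor-7g was -0.03 and changed sign to 0.05 after the second quantile normalization and to 0.01 without D4-act-7g replicate 1.

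**Figure D3:**
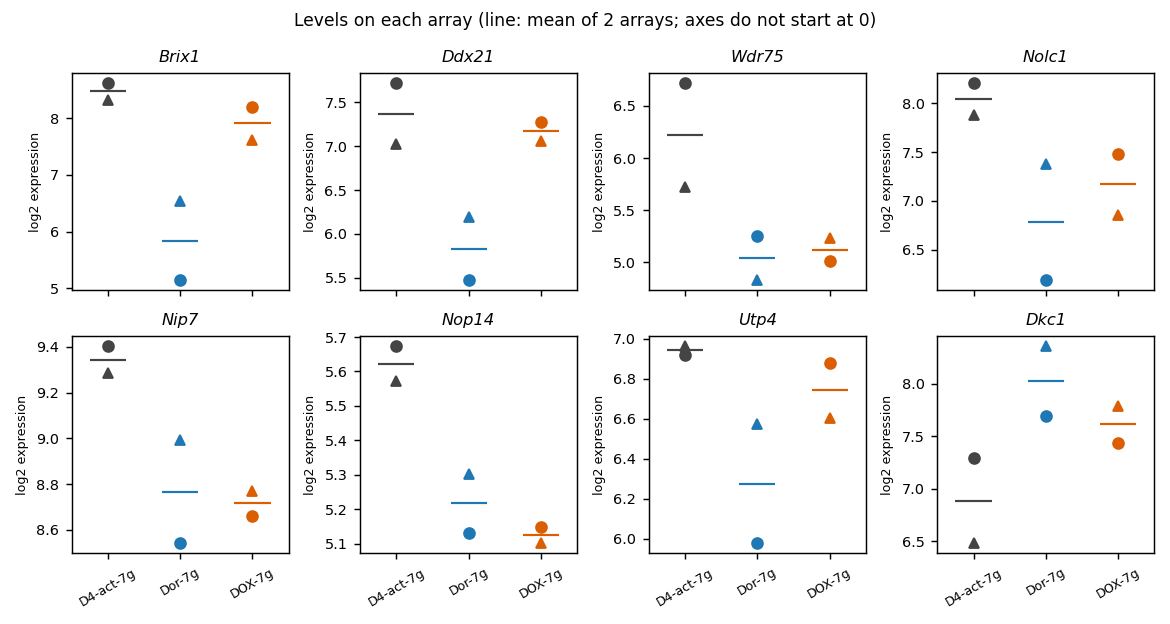
Log2 expression (vertical axes, which do not start at 0) of 8 members on the arrays of each group (horizontal axis; circles are replicate 1, triangles replicate 2, lines the mean of 2 arrays). Brix1, Ddx21 and Utp4 are lowest in Dor-7g, while Wdr75, Nolc1, Nip7 and Nop14 lie below D4-act-7g in both day 7 groups, and Dkc1 lies above it in both.

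Box C/D snoRNPs, which place methyl groups on rRNA and in the case of U3 guide its cutting, were represented by Nop56, Nop58 and Rrp9. Nop56 gave 7.27 and 6.66 on the D4-act-7g arrays, 5.97 and 6.80 on the Dor-7g arrays and 6.27 and 6.42 on the DOX-7g arrays at its brightest probeset. The Dor-7g arrays overlapped those of D4-act-7g, with a difference of -0.58 ± 0.34 (adjusted p = 0.502), and both DOX-7g arrays lay below, at -0.62 ± 0.34 (adjusted p = 0.636). Its other probesets had higher means in the day 7 groups, although at the second the DOX-7g arrays overlapped those of D4-act-7g. The second, whose mean over the arrays is nearly tied with the first (6.55 against 6.56), gave 6.01 and 6.06, then 8.50 and 6.15, then 6.66 and 5.89, and its difference in Dor-7g rests on 1 array. The third gave 2.78 and 2.81, then 8.38 and 4.28, then 6.10 and 7.19, higher on every day 7 array, by 3.53 ± 1.26 in Dor-7g (adjusted p = 0.291) and 3.85 ± 1.26 in DOX-7g (adjusted p = 0.348) in a limma fit of 14740 probesets. Both D4-act-7g arrays lie below the array median at the third, which passed the filter through the day 7 arrays, so its test carries no weight of its own. A further probeset is annotated with both Nop56 and Snord57, a snoRNA encoded inside it, and was not used. Which probesets report the Nop56 mRNA was not settled, and no single direction is given for the gene. Nop58, its partner in the core particle, differed by 0.07 and -0.13, and Rrp9, the protein specific to U3, by -0.37 and -0.24, with overlapping arrays in both comparisons. The median of the 3 genes was -0.37 in Dor-7g and -0.24 in DOX-7g with the brightest probesets, and 0.07 in Dor-7g with the mean of all probesets. In Dor-7g it was -0.17 after the second quantile normalization, and -0.21, -0.18 and -0.19 without Dor-7g replicate 1, Dor-7g replicate 2 and D4-act-7g replicate 2. In DOX-7g it changed sign to 0.03 without DOX-7g replicate 2 and was -0.51 without DOX-7g replicate 1.

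The U3 snoRNA that Rrp9 binds was read by a probeset for its gene Rnu3a, which gave 2.50 and 2.92 on the D4-act-7g arrays, both below the array median, 10.14 and 8.84 on the Dor-7g arrays and 8.31 and 9.86 on the DOX-7g arrays. Every day 7 array lay above both D4-act-7g arrays. The gene entered the fit through the day 7 arrays alone, so no fold change or test is given for it. U3 has near-identical gene copies that one probeset may not separate.

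Several snoRNAs are themselves encoded inside member genes, and these were looked at after the member values were seen. By the RefSeq gene positions, 19 snoRNA genes lie within 7 member genes. Of these 10 had a probeset of their own, 5 passed the filter and none passed the test. Snord110 and Snord92 passed the filter through day 7 arrays alone, so their tests carry no weight. Snord110, within Nop56, gave 4.49 and 4.46, then 5.11 and 8.40, then 8.71 and 5.13, higher on every day 7 array than in D4-act-7g. It too lay below the array median on both D4-act-7g arrays, so no difference or test is given for it. In both day 7 groups one array was far above the other. Snord11, within Nop58, was also higher on all day 7 arrays, by 0.55 and 0.38. Snord92, within Wdr43, was high only on Dor-7g replicate 2 (7.04) and DOX-7g replicate 2 (6.43), and Snora75, within Ncl, only on DOX-7g replicate 2 (8.40). Snord53, also within Wdr43, differed by -0.06 and -0.57 with overlapping arrays.

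**Figure D4:**
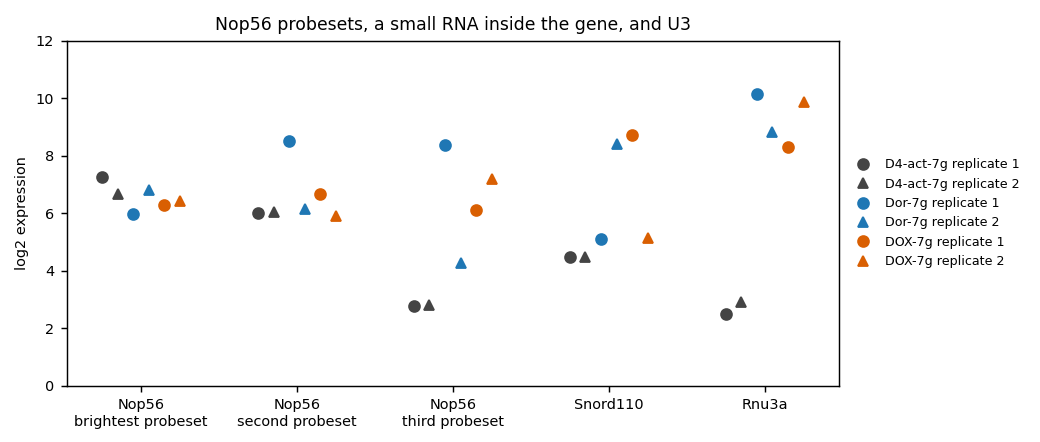
Log2 expression (vertical axis) of the 3 Nop56 probesets, of the snoRNA Snord110 encoded inside Nop56 and of the U3 gene Rnu3a (horizontal axis) on each array; colours are groups and symbols are replicates. The brightest Nop56 probeset spans 5.97 to 7.27, the third spans 2.78 to 8.38, and Rnu3a is at 2.50 and 2.92 in D4-act-7g and between 8.31 and 10.14 on the other arrays.

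Box H/ACA snoRNPs convert uridines of rRNA to pseudouridine. Dkc1, their catalytic subunit and a partner of telomerase RNA, was the member that differed most in the upward direction. It gave 7.29 and 6.48 on the D4-act-7g arrays, 7.69 and 8.36 on the Dor-7g arrays and 7.44 and 7.79 on the DOX-7g arrays. Every day 7 array lay above both D4-act-7g arrays, which themselves differed by more than the DOX-7g arrays did. The differences were 1.14 ± 0.36 in Dor-7g (95% interval 0.24 to 2.03, adjusted p = 0.243) and 0.73 ± 0.36 in DOX-7g (adjusted p = 0.575). The other subunits stayed closer to 0. Gar1 differed by -0.08 in Dor-7g and -0.18 in DOX-7g, Nhp2 by -0.06 and -0.08, and Nop10 by -0.05 and -0.15, all with overlapping arrays. The median of the 4 genes was -0.05 in Dor-7g, but 0.0016 after the second quantile normalization and 0.04, 0.09 and 0.04 without Dor-7g replicate 1, Dor-7g replicate 2 and D4-act-7g replicate 1. In DOX-7g it was -0.12, and 0.02 without DOX-7g replicate 1.

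The small subunit processome, the large U3-containing particle on the 5′ part of the precursor, was represented by 9 members. Its median was -0.36 in Dor-7g and -0.16 in DOX-7g. In Dor-7g 8 of 9 members (88.9%) lay below 0, against 43.3% of all genes. The Dor-7g value was -0.12 without Dor-7g replicate 1 and -0.24 without D4-act-7g replicate 1, and the DOX-7g value was -0.08 without DOX-7g replicate 2. Wdr75, a subunit of the complex that joins the nascent precursor first, gave 6.72 and 5.72 on the D4-act-7g arrays, 5.25 and 4.83 on the Dor-7g arrays and 5.01 and 5.23 on the DOX-7g arrays. All day 7 arrays lay below both D4-act-7g arrays, although those had the widest gap of any member in that group. The differences were -1.18 ± 0.36 (adjusted p = 0.232) and -1.10 ± 0.36 (adjusted p = 0.347). Utp4, of the same complex, gave 6.92 and 6.96, then 5.98 and 6.57, then 6.88 and 6.61. It lay lower in Dor-7g by -0.67 ± 0.25 (adjusted p = 0.316) and by -0.20 ± 0.25 in DOX-7g (adjusted p = 0.902). DOX-7g exceeded Dor-7g on both arrays, by 0.47 (adjusted p = 0.520). Wdr43, also of that complex, differed by -0.36 and -0.16 with overlapping arrays, and the untested Utp15 ranged from 3.93 to 4.38 over the 6 arrays.

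Nop14, another processome factor, gave 5.67 and 5.57, then 5.13 and 5.30, then 5.15 and 5.10. Its groups did not overlap with D4-act-7g, and its differences were -0.41 ± 0.17 (adjusted p = 0.370) and -0.50 ± 0.17 (adjusted p = 0.369). Utp18 differed by -0.56 in Dor-7g, mostly on replicate 1, and by -0.15 in DOX-7g. Imp4, a U3-associated protein, differed by -0.12 and -0.25. Of the rRNA-modifying enzymes of the particle, Nat10 lay above 0 in Dor-7g and Emg1 below it. Nat10, the acetyltransferase of small subunit rRNA, gave 4.86 and 4.41, then 5.12 and 4.83, then 4.38 and 5.01, with differences of 0.34 ± 0.29 (adjusted p = 0.624) and 0.06 ± 0.29 and overlapping arrays. Emg1, a methyltransferase of small subunit rRNA, gave 11.79 and 11.75, then 11.27 and 11.75, then 11.73 and 11.98, with differences of -0.26 ± 0.23 (adjusted p = 0.633) and 0.08 ± 0.23.

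Late small subunit factors, which act on the pre-ribosome before and after export, had a median of -0.22 in Dor-7g and -0.13 in DOX-7g. In Dor-7g it was -0.11 without replicate 1 of that group, and in DOX-7g it was -0.06 without DOX-7g replicate 2 and -0.20 without DOX-7g replicate 1. Ltv1 gave 7.89 and 7.67 on the D4-act-7g arrays, 6.55 and 7.74 on the Dor-7g arrays and 7.75 and 7.59 on the DOX-7g arrays, so that its difference of -0.63 ± 0.39 in Dor-7g (adjusted p = 0.519) rests on replicate 1. Rrp12, a factor in export of both subunits, gave 5.08 and 5.31, then 5.94 and 5.10, then 5.13 and 4.97. Its difference in Dor-7g was 0.32 ± 0.30 (adjusted p = 0.658), and -0.10 without replicate 1, and it was -0.15 in DOX-7g. Nob1, the endonuclease that makes the mature end of small subunit rRNA, differed by -0.25 and -0.20, with Dor-7g and DOX-7g arrays all below D4-act-7g. Bysl, which binds the same pre-ribosome, differed by -0.18 and -0.12 with overlapping arrays.

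Large subunit assembly held the largest single difference, that of Brix1 in Dor-7g, and Nip7 lay lower in both day 7 groups. Brix1, an early assembly factor of the large subunit, gave 8.62 and 8.32 on the D4-act-7g arrays, 5.14 and 6.54 on the Dor-7g arrays and 8.20 and 7.61 on the DOX-7g arrays. The Dor-7g arrays were far below the other 4, and they were also far from each other, with the widest replicate gap of any member. In the Dor-7g group the level was 6.21-fold lower than in D4-act-7g (-2.63, 95% interval -3.82 to -1.45), with an unadjusted p of 0.00172 and an adjusted p of 0.0885 by limma. The difference was -1.93 with Dor-7g replicate 2 alone (adjusted p = 0.0647) and -3.33 with Dor-7g replicate 1 alone. DOX-7g lay -0.56 ± 0.48 from D4-act-7g (adjusted p = 0.813), both arrays below, and 4.20-fold above Dor-7g (2.07, 95% interval 0.88 to 3.26, adjusted p = 0.189).

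The other large subunit factors differed by less in Dor-7g. Rrs1, which helps bring the smallest rRNA into the large subunit, gave 6.78 and 6.73 on the D4-act-7g arrays, 6.90 and 6.91 on the Dor-7g arrays and 6.82 and 6.52 on the DOX-7g arrays, with differences of 0.15 ± 0.18 (adjusted p = 0.732) and -0.09 ± 0.18. Its dimmer probeset differed by 0.12 and 0.11, and its arrays overlapped in every comparison. Nip7 gave 9.40 and 9.28, then 8.54 and 8.99, then 8.66 and 8.77. All of its day 7 arrays lay below D4-act-7g, by -0.58 ± 0.21 in Dor-7g (adjusted p = 0.309) and -0.63 ± 0.21 in DOX-7g (adjusted p = 0.362). Ebna1bp2 gave 7.98 and 7.71, then 8.27 and 7.94, then 7.51 and 7.66. Its DOX-7g arrays were the lowest and did not overlap either other group, at -0.26 ± 0.21 from D4-act-7g (adjusted p = 0.790) and -0.52 ± 0.21 from Dor-7g (adjusted p = 0.421).

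The PeBoW complex, formed by Pes1, Bop1 and Wdr12 and needed for processing of the internal spacer of the precursor, was measured for every subunit. Pes1 differed by -0.24 in Dor-7g and -0.28 in DOX-7g with no overlap of arrays, Bop1 by 0.06 and -0.09, and Wdr12 by -0.09 and -0.05. Gnl3, nucleostemin, a nucleolar GTPase of stem cells, gave differences of -0.11 and -0.10. Nop2, a methyltransferase of large subunit rRNA, gave -0.21 and -0.09. Nop16 differed by -0.25 and -0.40 and Rrp1b by -0.28 and -0.34, all without overlap of arrays. The median of the 11 large subunit genes was -0.21 in Dor-7g and -0.26 in DOX-7g. All 11 lay below 0 in DOX-7g, where 58% of all genes did. The Dor-7g value was -0.02 without Dor-7g replicate 2, -0.10 after the second quantile normalization and -0.34 after centring. Between DOX-7g and Dor-7g it was -0.05, 0.08 after centring and -0.20 after the second quantile normalization.

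**Figure D5:**
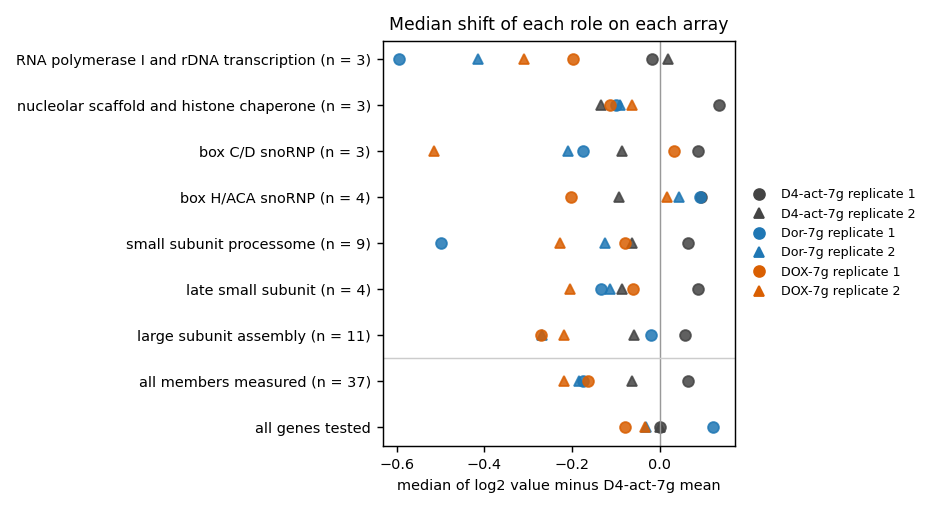
Median over the members of each role of the log2 value minus the D4-act-7g mean (horizontal axis), for each array, with all 37 measured members and all genes tested in the bottom lines (vertical axis). RNA polymerase I genes lie at -0.59 and -0.42 on the Dor-7g arrays, box H/ACA genes at 0.09 and 0.04, and all genes tested between -0.08 and 0.12 on every array; with 3 or 4 genes a median follows single genes.

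Other genes of the pathway were examined in a wider list of 141 genes, of which 132 had a probeset and 122 were tested. The list covers further subunits and factors of RNA polymerase I, snoRNP assembly, small and large subunit assembly, and rRNA nucleases. No gene of it passed the test in Dor-7g or DOX-7g against D4-act-7g by limma, with 21 (17.2%) and 8 (6.56%) genes at an unadjusted p under 0.05, against 14.3% and 11.0% of all genes. The medians were -0.16 and -0.15, and 88 (66.7%) and 99 (75%) of the 132 genes lay below 0, against 43.3% and 58.0% of all genes. The largest drop in Dor-7g, -3.60 for Exosc1, came mostly from replicate 1. Its Dor-7g arrays gave 5.05 and 10.31, against 11.42 and 11.15 in D4-act-7g. Those of Rpp30 were likewise far apart, at 4.40 and 9.18. Between DOX-7g and Dor-7g, 1 gene passed in the downward direction, where 0.121% of all genes did, and 15 (12.3%, against 11.6% of all genes) had an unadjusted p under 0.05. That gene was Tma16, which takes part in large subunit assembly. It gave 7.83 and 8.12 on the D4-act-7g arrays, 10.14 and 8.52 on the Dor-7g arrays and 5.60 and 5.52 on the DOX-7g arrays, and it fell by 3.77 ± 0.51 in DOX-7g relative to Dor-7g (adjusted p = 0.0372). DOX-7g was lowest and Dor-7g highest on every array. The call was kept in 8 of 15 alternatives, whose adjusted p lay between 0.0015 and 0.209, and it was lost after a second quantile normalization, with a replicate block, with only these groups in the fit and without any one of the D4-act-7g or DOX-7g arrays.

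Against D4-act-7g the lowest p-values of the wider list belonged to other genes. In Dor-7g they were those of Exosc3, a cap subunit of the RNA exosome (-1.10 ± 0.22, adjusted p = 0.102), and Taf1a, of the selectivity factor that recruits RNA polymerase I (-0.98 ± 0.20, adjusted p = 0.108). Exosc3 gave 10.61 and 10.56 on the D4-act-7g arrays, 9.28 and 9.68 on the Dor-7g arrays and 9.54 and 9.82 on the DOX-7g arrays, so every day 7 array was lower. Taf1a gave 5.10 and 5.22, then 4.11 and 4.25, then 4.57 and 4.91, with the lowest values in Dor-7g. Those Dor-7g values lay below the array medians of 4.87 and 4.67, so the gene is dim there. It passed the filter through arrays of the other groups. In DOX-7g they were those of Tma16 (-2.41 ± 0.51, adjusted p = 0.144) and Ngdn, a small subunit factor (-1.13 ± 0.25, adjusted p = 0.156). Ngdn gave 10.13 and 10.31, then 8.78 and 9.39, then 9.10 and 9.08, lower on every day 7 array.

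None of the 4 regulators of the pathway passed the test in any comparison. Myc, which activates many of these genes, gave 7.76 and 7.39 on the D4-act-7g arrays, 7.40 and 7.55 on the Dor-7g arrays and 7.36 and 7.48 on the DOX-7g arrays, with overlap between all groups. Maf1, a repressor of RNA polymerase III, gave 6.85 and 6.76, then 6.57 and 6.57, then 6.59 and 6.21, so its day 7 arrays lay below D4-act-7g. Mycn, a relative of Myc, gave 5.57 and 5.38, then 6.27 and 5.78, then 5.40 and 5.94. Both of its Dor-7g arrays lay above D4-act-7g, by 0.55 ± 0.27 (limma, adjusted p = 0.425), and its DOX-7g arrays overlapped. Larp1, a repressor of translation of ribosomal protein mRNAs, gave 7.34 and 7.09, then 7.34 and 6.91, then 6.67 and 7.11, with overlap between all groups and differences of -0.09 ± 0.25 and -0.32 ± 0.25.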

How the data were processed

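The authors deposited log2 values for 41345 probesets on each of 6 arrays, between 1.52 and 14.18. The tools Partek 6.6 and RMA are listed, without role or setting, per the submitters' processing notes, and a genome build was not given in the sources used here. Biotin-labelled RNA came from 10 blastocysts of each group, per the labels' protocols. Group names were read from sample titles. The platform annotation named the probesets, with symbols updated by Entrez identifier from RefSeq (GRCm38.p6): 23521 had 1 symbol, 1814 several and 16010 are not named here, and 193 identifiers were not matched.

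The brightest probeset stood for a gene, and 14020 genes with at least 2 of 6 arrays at or above the array median were fitted in 1 model (limma 3.58.1 under R 4.3.3) of the 3 group means, with eBayes (3 residual and 2.81 prior degrees of freedom). p-values were adjusted over all genes by the Benjamini-Hochberg method, with a threshold of 0.05; intervals are 95% and use limma's moderated error. The fit was tested on simulated data. The members and lists were chosen with earlier results of these data known. Members given on every array are the 3 with the lowest p in each direction of each comparison, with Ncl, Npm1, Dkc1, Polr1a and Nop56; Nolc1 and Ltv1, the snoRNAs within member genes, the single-probeset fit and the counts of non-overlapping arrays under other settings were added after the values were seen. Of the wider list, genes past the threshold or else the 2 with the lowest p are named. The number of arrays limits the precision. Alternatives changed the filter, normalization, centring, variance model, array weights or probeset rule, added a replicate block, fitted only the 4 arrays compared, or left out each array in turn.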

Additional observations from a re-analysis of the deposited data

Results flagged for a closer look

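Probesets of Nop56 other than the brightest carried signals that the comparisons of genes do not use. The second probeset lay 1.29 log2 units higher in Dor-7g than in D4-act-7g, with both Dor-7g arrays above both D4-act-7g arrays but only replicate 1 by more than 0.5. The third probeset lay 3.53 higher in Dor-7g and 3.85 higher in DOX-7g, above both D4-act-7g arrays on all 4 arrays. Its D4-act-7g values lie below the array median, and it passed the filter through the day 7 arrays. Neither passed limma's test over 14740 probesets (adjusted p = 0.488 for the second, and 0.291 and 0.348 for the third).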

How the results depend on the processing

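No member passed the threshold in any comparison under the other filter, normalization, centring, variance models, array weights or probeset rule, or with only the 4 arrays compared in the fit. Leaving out 1 array at a time gave 0 to 5 members called in Dor-7g against D4-act-7g, 0 to 0 in DOX-7g against D4-act-7g and 0 to 2 in DOX-7g against Dor-7g, where the calls came from the fit without Dor-7g replicate 2. The labels state no pairing, and no shared effect of the replicate numbers was seen. Deviations of same-numbered arrays correlated at -0.02, -0.01 and -0.14, which cannot show whether the samples were paired. With the replicate block 0 members were called in each comparison, and 82, 90 and 116 genes in place of 138, 134 and 163.

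The members' median in Dor-7g was -0.17 after a second quantile normalization, -0.36 after centring and -0.24 to -0.18 with an array left out. In DOX-7g against D4-act-7g it was -0.22 to -0.13 with an array left out. In DOX-7g against Dor-7g it was 0.032 and 0.111 under those scalings and -0.0645 to 0.0338 with an array left out. Members with non-overlapping arrays numbered as follows with an array left out, which by construction makes non-overlap easier: 19 to 25 lower (28.9% to 42.0% of all genes) and 3 to 10 higher (34.9% to 51.9%) in Dor-7g, 22 to 25 lower (42.2% to 47.9%) and 4 to 6 higher (29.0% to 34.5%) in DOX-7g, and 7 to 14 lower (37.5% to 55.5%) and 10 to 15 higher (23.5% to 33.6%) between DOX-7g and Dor-7g. After centring, 23 were lower in Dor-7g (31.2% of all genes) in place of 16 (21.5%), and 1 was higher (16.3%). In DOX-7g against D4-act-7g 14 were lower (30.4%). Between DOX-7g and Dor-7g 1 was lower (17.1%) and 11 higher (23.1%). After the second quantile normalization, 14 were lower (23.8%) and 3 higher (22.3%) in Dor-7g. In DOX-7g against D4-act-7g 15 were lower (29.5%) and 1 higher (20%), and 9 were lower between DOX-7g and Dor-7g (22.9%). Counts of all genes called moved more, to 461 in DOX-7g against D4-act-7g with array weights.

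Of 735 alternative values for the 16 named members, 7 changed sign, and a further 32 sign changes were of values within 1 SE of 0. Other variance models, the replicate block and omission of an array outside the comparison leave a difference of group means unchanged by construction. Many of the 735 values therefore could not change sign, and their number is no measure of robustness. Nop56 was 1.41 in Dor-7g and 1.16 in DOX-7g with the mean of its probesets, 1.29 and 0.24 at the second probeset, and 3.53 and 3.85 at the third. Rrp12 in Dor-7g ranged from -0.10, without Dor-7g replicate 1, to 0.74, without Dor-7g replicate 2. The cause was not tested. Signal over background was not available, so levels below the array median are treated as dim.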
